A study of Mus musculus with 12 samples.

Results

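Potassium channel genes were examined as a family in the adult medial prefrontal cortex of mice exposed to maternal immune activation. Members were the single-gene symbols of the platform annotation that start with Kcn, apart from 3 symbols that are not reported here. Each gene was read by 1 probe set, the one with the highest mean over the 12 arrays. This gave 84 genes of 18820 single-gene symbols on the array, and 2 of them, Kcnd3 and Kcnh8, had a further probe set of their own.

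The animals were C57BL/6N offspring aged 12 weeks. In the poly(I:C) group, 6 offspring came from mothers given poly(I:C), which mimics the double-stranded RNA of viruses, at 5 mg/kg intravenously on gestation day 17. In the control group, 6 offspring came from mothers given saline by the same route on the same day. All were tested for behaviour and cognition before the tissue was taken, and each animal had 1 array. The series asks how prenatal exposure to an infection-like stimulus is reflected in adult cortical expression. The labels call the samples biological replicates and name neither litter, sex nor array batch, so the p-values rest on the spread among 6 animals a group, and littermates may be among them. The numbers in the sample descriptions differ between the groups, and a batch that followed them and the exposure cannot be told apart.

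Potassium channels let potassium leave or enter the cell along its gradient and so set the resting potential, the shape of the action potential and the interval before the next one. Voltage-gated channels are built from 4 pore-forming alpha subunits, some of which are silent on their own and only modify others, and carry auxiliary subunits that tune gating and surface delivery. Calcium- and sodium-activated channels open after activity, inward rectifiers hold the membrane near rest or answer G protein-coupled receptors, and K2P channels carry the background leak. In the cortex these families shape the firing of pyramidal neurons and interneurons and, in astrocytes, the clearance of extracellular potassium.

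Values are log2 expression per probe set, and differences are poly(I:C) minus control on that scale with the moderated standard error (SE) of limma. A gene was called where its limma p, adjusted by Benjamini-Hochberg over all 23099 annotated probe sets, was under 0.05. The 12 arrays had medians between 5.15 and 5.21 and correlated pairwise at r = 0.997 to 0.999 across genes. Excitatory neuron markers were detected in both groups (list means of 9.57 to 9.60 in poly(I:C) animals and 9.52 to 9.59 in controls), among them Slc17a7, the vesicular glutamate transporter of cortical pyramidal neurons, with a mean of 10.8. Array signals depend on the probes, so a higher signal in 1 gene than in another is not read as higher expression. Across genes, signal serves to choose, split or filter probe sets.

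After poly(I:C), 5 potassium channel genes rose and none fell among the 84, or 5.95%, beside 2.83% of all annotated probe sets called in either direction. They were Kcnn2 and Kcnt1, channels opened by calcium and by sodium, the leak channels Kcnk4 and Kcnk9, and Kcnv1, a silent partner of voltage-gated channels. Upward calls made up 2.02% of all annotated probe sets and downward calls 0.805%. The increases were small, between 1.10-fold for Kcnn2 and 1.16-fold for Kcnk9. No other member passed.

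At an unadjusted p under 0.05, 23 members (27.4%) passed, 18 of them higher and 5 lower, beside 19.1% of all annotated probe sets. The median difference of the 84 members was 0.024, beside 0.0030 over all annotated probe sets. After poly(I:C), 52 members (61.9%) had a higher mean, beside 52.0%. These measures went with signal. Annotated probe sets at or above the median signal had higher means in 65.7%, a median difference of 0.026 and 4.18% called. For the 53 members there these were 71.7%, 0.045 and 9.43%. Below that signal, higher means made up 38.3% of probe sets and 45.2% of the 31 members, and 0 members were called. Direction counts of subfamilies and lists below stand beside these shares. Differences among members ran from -0.16 for Kcng1 to 0.22 for Kcnk9. The values of the groups did not overlap for 2 members (2.38%), Kcnn2 and Kcnt1, beside 2.37% of all annotated probe sets, so the members' share lay at the background.

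**Figure D1:**
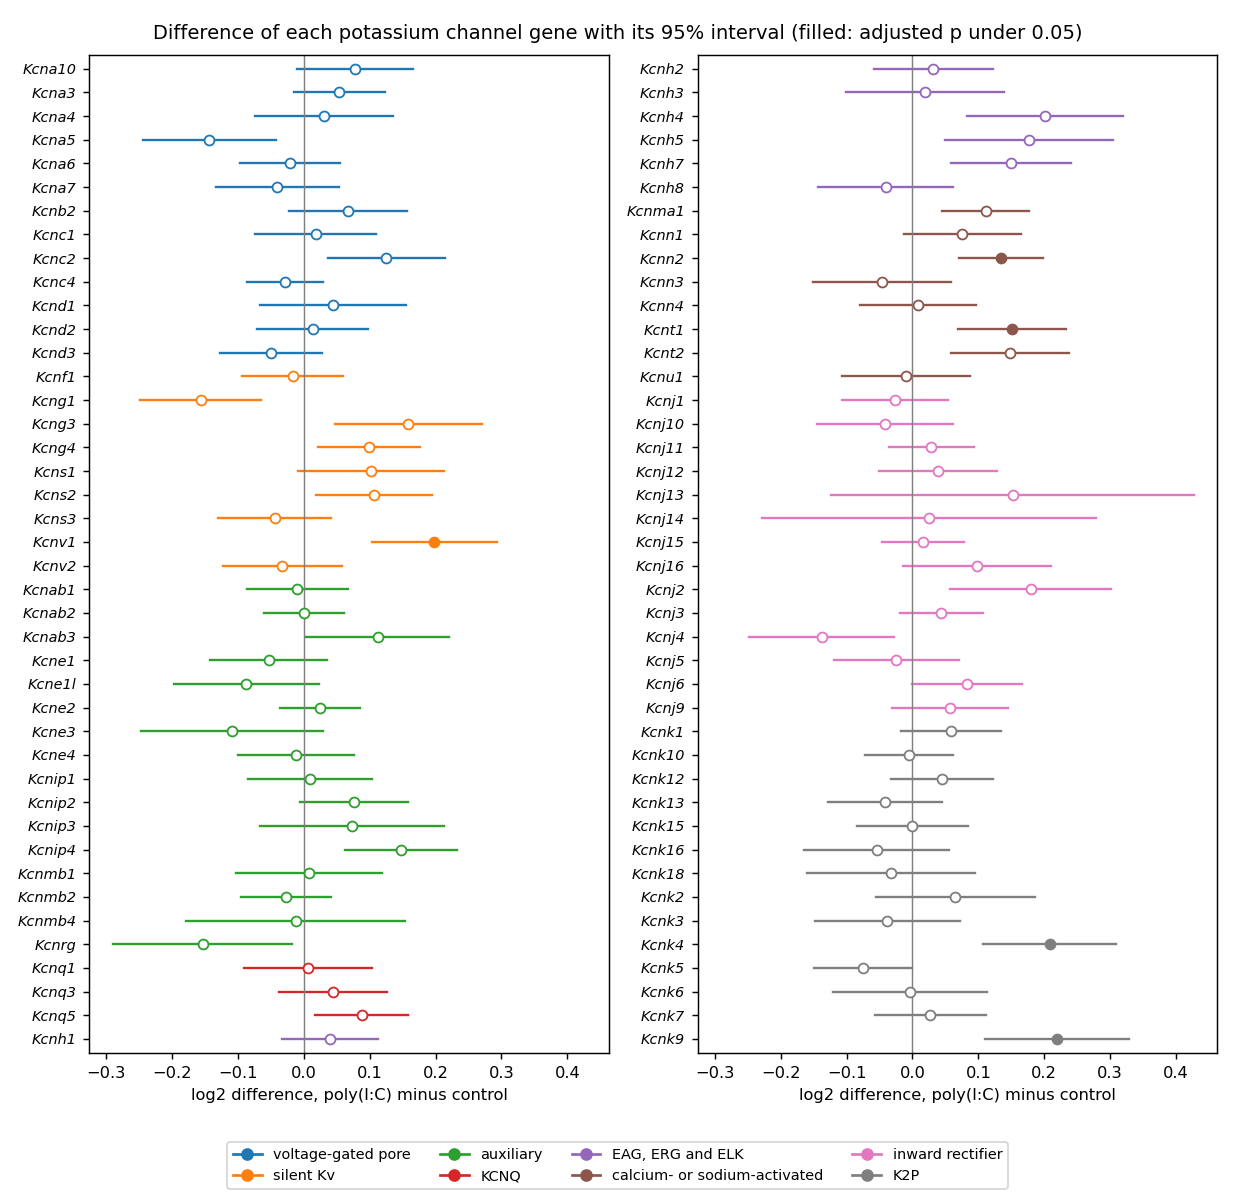
Log2 difference (poly(I:C) minus control, horizontal axis) of each of the 84 potassium channel genes with its 95% interval, coloured by role. Filled points mark the 5 called genes, Kcnn2, Kcnt1, Kcnk4, Kcnk9 and Kcnv1, all to the right of 0.

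Scaling mattered for the calls. Under quantile normalization none of the 5 passed, and the only member called was Kcng1, which was lower. After each array was centred on its median, Kcnv1 alone was called. On the values as deposited, Kcnn2 alone was called when all 35556 probe sets were tested or the variances were not moderated. Calls over all features fell in these settings too, from 653 of 23099 to 414 of 35556 and to 122 of 23099. Over all annotated probe sets the scaling steps turned 467 higher and 186 lower calls into 239 and 285 with quantile normalization and 298 and 232 with median centring. The median difference of the 84 members was then 0.0095 and 0.014, with 44 and 47 higher means. The differences of the 5 called genes stayed above 0 in all 22 alternatives run, which says little about stability. These genes were picked for their rise, and settings such as an intensity trend or no variance moderation leave a difference unchanged.

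Markers of other cells moved in the same comparison. Their calls stand beside 0.805% of all annotated probe sets called lower and 2.02% called higher. Each of the 8 oligodendrocyte markers had a lower mean in poly(I:C) animals, with 4 of them called (Mobp, Cnp, Cldn11 and Mal), with list means of 7.17 to 7.73 in poly(I:C) animals and 7.64 to 8.06 in controls. All 6 measured striatal markers had lower means, 1 of them called, with list means of 6.46 to 6.69 in poly(I:C) animals and 6.55 to 7.33 in controls. All 5 upper-layer markers had higher means, none called, with list means of 8.37 to 8.59 in poly(I:C) animals and 8.34 to 8.44 in controls. All 6 deep-layer markers had lower means, 1 called, with list means of 7.05 to 7.32 in poly(I:C) animals and 7.30 to 7.39 in controls. None was called of 5 excitatory, 6 inhibitory and 5 parvalbumin neuron markers, nor of 6 astrocyte, 4 oligodendrocyte precursor, 6 microglial, 6 vascular and 4 choroid plexus markers. Of these, 5 of the 6 inhibitory, all 4 precursor, 5 of the 6 microglial and 4 of the 6 vascular markers had lower means. Higher means were found for 4 of the 5 parvalbumin, 3 of the 5 excitatory, 3 of the 6 astrocyte and 2 of the 4 choroid plexus markers. The parvalbumin list holds Kcnc2, itself one of the 84 members, so it is not independent of them. Their part in the channel differences was not tested, and in bulk tissue fewer cells of a type and less RNA per cell cannot be told apart.

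The small-conductance calcium-activated channels, which open on calcium entering during a spike and produce the afterhyperpolarization, held the call of lowest p. Kcnn2, the SK2 channel of cortical and hippocampal neurons, had a lowest, median and highest value of 6.86, 6.90 and 6.94 in poly(I:C) animals and of 6.68, 6.77 and 6.83 in controls. All 6 poly(I:C) animals lay above the highest control. The mean was 6.90 ± 0.03 in poly(I:C) animals and 6.76 ± 0.05 in controls (SD, n = 6 each, as for all means below), a difference of 0.13 ± 0.030 (SE; limma adjusted p = 0.0276). The call was lost without poly(I:C) 1 or 3 or control 2 or 3 (adjusted p up to 0.0681), with quantile normalization (0.0784) and with centring of each array on its median (0.0538). The other 3 Kcnn genes did not pass, with differences of 0.076 for Kcnn1, -0.046 for Kcnn3 and 0.0080 for Kcnn4, which in other tissues serves red cells and lymphocytes. Kcnn3 averaged 7.49 ± 0.10 in poly(I:C) animals and 7.54 ± 0.09 in controls.

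Both sodium-activated channel genes had higher means after poly(I:C). Kcnt1, which encodes Slack, had values of 8.04, 8.10 and 8.18 (lowest, median, highest) in poly(I:C) animals and 7.83, 7.97 and 8.01 in controls, again with no overlap. It averaged 8.11 ± 0.07 in poly(I:C) animals and 7.95 ± 0.07 in controls, a difference of 0.15 ± 0.039 (adjusted p = 0.0477). Leaving out poly(I:C) 5 or control 5 kept this call, and leaving out any of the remaining animals ended it (adjusted p up to 0.101). It was also lost with quantile normalization (0.112), with median centring (0.0715) and without controls 5 and 6 together (0.0707). Kcnt2, which encodes the related Slick channel, had values of 7.90, 8.07 and 8.09 in poly(I:C) animals and 7.83, 7.85 and 8.03 in controls, with the highest control above the lowest poly(I:C) animal. Its difference of 0.15 ± 0.042 did not pass (adjusted p = 0.0678).

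Kcnma1, the large-conductance BK channel that joins calcium and voltage sensing, averaged 9.13 ± 0.05 in poly(I:C) animals and 9.02 ± 0.04 in controls. Every poly(I:C) animal lay above the control mean and 4 above the highest control, but the difference of 0.11 ± 0.031 did not pass (adjusted p = 0.0630). Its accessory beta subunits did not pass either, with Kcnmb1, Kcnmb2 and Kcnmb4 between -0.027 and 0.0078. Kcnu1, the sperm channel of the same family, averaged 4.04 ± 0.09 in poly(I:C) animals and 4.05 ± 0.09 in controls.

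Among K2P channels, 2 of 14 were called higher and none lower, beside 2.83% of all annotated probe sets called in either direction. Kcnk4 encodes TRAAK, a leak channel opened by membrane stretch and lipids. Its values were 7.50, 7.66 and 7.80 in poly(I:C) animals and 7.39, 7.42 and 7.52 in controls, and 5 of 6 poly(I:C) animals lay above the highest control. The mean was 7.65 ± 0.12 in poly(I:C) animals and 7.44 ± 0.05 in controls, a difference of 0.21 ± 0.048 or 1.16-fold (adjusted p = 0.0298). The call was lost without poly(I:C) 3, 4 or 5 or control 1, 2 or 6 (adjusted p up to 0.0731), after quantile normalization (0.0737), after median centring (0.0531) and without controls 5 and 6 together (0.0830). The RefSeq gene table lists Catsperz and Tex40 among the synonyms of Kcnk4, and which of these transcripts the probe set reads was not stated in the labels or files.

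Kcnk4 was the only called gene with an entry in the RefSeq promoter table used here. The 250 bases before its annotated start are shown, from chr19:6934516-6934765, minus strand, build GRCm38.p6. Whether they regulate the transcript that the probe set reads was not tested. Capitals mark a GC box, the letters GGGCGG that Sp-family factors can bind.
Kcnk4: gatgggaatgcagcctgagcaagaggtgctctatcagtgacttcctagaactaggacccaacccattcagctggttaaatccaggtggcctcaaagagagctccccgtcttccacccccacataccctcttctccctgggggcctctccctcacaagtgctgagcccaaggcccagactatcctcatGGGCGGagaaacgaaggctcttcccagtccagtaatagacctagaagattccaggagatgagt
The box begins 63 bases before the start. Searched on both strands, the same letters stood in 41 of 90 such windows (45.6%) of the 65 member genes with an entry, and in 32.7% of all 32851 windows. A match is a description of the letters and not of binding.

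Kcnk9, the acid-sensitive leak channel TASK3, had values of 8.26, 8.35 and 8.43 in poly(I:C) animals and 7.95, 8.17 and 8.31 in controls. It averaged 8.36 ± 0.06 in poly(I:C) animals and 8.14 ± 0.13 in controls, and its difference of 0.22 ± 0.052 was the largest of the 84 (adjusted p = 0.0347). Control 5, at the top of its group, lay above the lowest poly(I:C) animal. Without poly(I:C) 1, 3, 4 or 6 or control 1, 2 or 3 the call was lost (adjusted p up to 0.0843), as it was after quantile normalization (0.0712) and median centring (0.0512). Without controls 5 and 6 together the difference was 0.28 and passed (0.0137).

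No other K2P gene passed. Kcnk1, a weak inward-rectifying leak channel, averaged 8.33 ± 0.06 in poly(I:C) animals and 8.27 ± 0.06 in controls. Kcnk3, the acid-sensitive channel most alike to Kcnk9, differed by -0.038 ± 0.052 (95% interval -0.15 to 0.07). The stretch-sensitive relatives of Kcnk4 gave 0.065 ± 0.057 for Kcnk2 and -0.0053 ± 0.032 for Kcnk10. Kcnk13, which microglia express, differed by -0.042 ± 0.041. Kcnk5, a pH-sensitive channel of epithelia, differed by -0.075 ± 0.035 (adjusted p = 0.257). Kcnk6, Kcnk7, Kcnk12, Kcnk15, Kcnk16 and Kcnk18 lay between -0.055 and 0.045. Over the 14 genes the median difference was -0.0020, and 6 had a higher and 8 a lower mean.

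**Figure D2:**
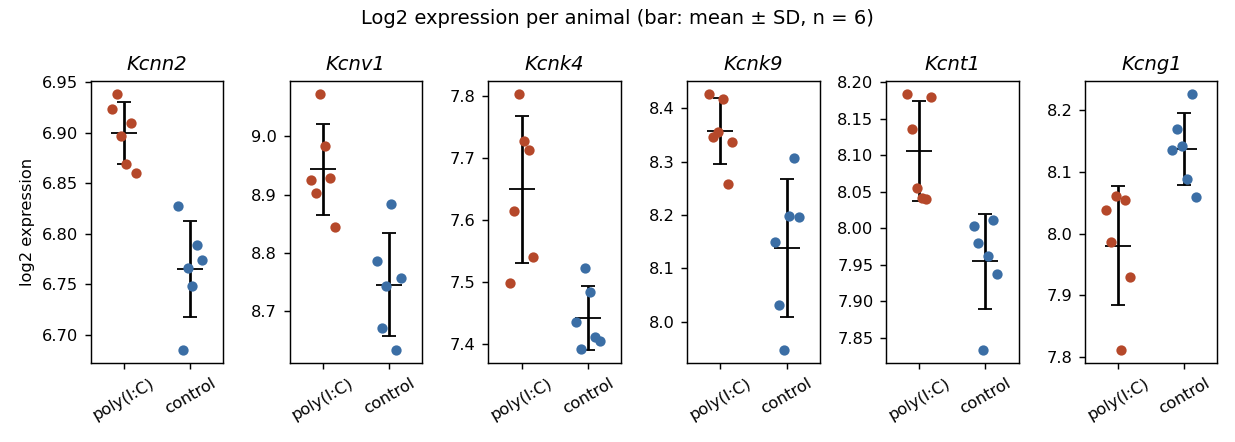
Log2 expression of the 5 called genes and of Kcng1, the member with the largest negative difference, in each poly(I:C) and control animal. Bars give the mean ± SD of 6 animals, and only Kcnn2 and Kcnt1 have groups that do not overlap.

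The silent subunits form no channel alone but join Kcnb subunits and change their gating. They included 1 call among 9 genes, beside 2.83% of all annotated probe sets. Kcnv1 had values of 8.84, 8.93 and 9.07 in poly(I:C) animals and 8.63, 8.75 and 8.88 in controls. Control 4 reached above the lowest poly(I:C) animal and the other 5 controls lay below all of them. Kcnv1 averaged 8.94 ± 0.08 in poly(I:C) animals and 8.74 ± 0.09 in controls, a difference of 0.20 ± 0.045 or 1.15-fold (adjusted p = 0.0280). It kept its call after median centring (adjusted p = 0.0479) and lost it after quantile normalization (0.0574), without controls 5 and 6 together (0.0745) and without poly(I:C) 1, 3 or 4 or control 2 or 3 (up to 0.0708).

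Kcng1, another silent subunit, went the other way. It had values of 7.81, 8.01 and 8.06 in poly(I:C) animals and 8.06, 8.14 and 8.23 in controls, so the groups met only at their edge. It averaged 7.98 ± 0.10 in poly(I:C) animals and 8.14 ± 0.06 in controls. The difference of -0.16 ± 0.043 did not pass as deposited (adjusted p = 0.0609). It passed after quantile normalization, where it was -0.19 (adjusted p = 0.0338), with the 50th percentile filter (0.0408) and with an intensity trend (0.0485). Members with higher means that did not pass as deposited passed in such settings too. The filter called Kcnip4 (adjusted p = 0.0383), Kcnma1 (0.0384), Kcnh4 (0.0442), Kcnt2 (0.0456) and Kcnh7 (0.0457). The trend called Kcnip4 (0.0368), Kcnma1 (0.0395) and Kcnh7 (0.0480). Kcng3 (0.16 ± 0.053), Kcng4 (0.098 ± 0.037), Kcns2 (0.11 ± 0.042) and Kcns1 (0.10 ± 0.053) had higher means and did not pass. Kcns3 (-0.044), Kcnv2 (-0.033) and Kcnf1 (-0.017) lay below 0. The median difference of the 9 silent subunits was 0.098, with 5 higher and 4 lower means.

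The pore-forming voltage-gated genes of the Kcna, Kcnb, Kcnc and Kcnd groups gave no call among 13. Kcnb2, a delayed rectifier whose group the silent subunits modify, averaged 7.65 ± 0.07 in poly(I:C) animals and 7.58 ± 0.08 in controls. Kcnc2, a fast channel that lets parvalbumin interneurons fire at high rates, averaged 8.01 ± 0.08 in poly(I:C) animals and 7.89 ± 0.08 in controls, and its difference of 0.13 ± 0.042 did not pass (adjusted p = 0.112). All 6 poly(I:C) animals lay above the control mean of Kcnc2 and 2 above the highest control. Its relatives Kcnc1 (0.018) and Kcnc4 (-0.029) did not pass, and Pvalb, the calcium-binding protein that marks those interneurons, differed by 0.075 (adjusted p = 0.520). Of the other markers on that list, Syt2 (0.066), Erbb4 (0.017) and Tac1 (-0.27, adjusted p = 0.329) did not pass either.

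Kcnd2 and Kcnd3, which carry the dendritic A-type current, averaged 8.97 ± 0.05 and 8.17 ± 0.03 in poly(I:C) animals, and 8.96 ± 0.09 and 8.22 ± 0.08 in controls. Their relative Kcnd1 differed by 0.044. The other probe set of Kcnd3 differed by 0.048, opposite in sign to the -0.050 of the probe set used here, and neither passed. Among Kcna genes, which set spike threshold in axons, Kcna6 averaged 8.02 ± 0.06 in poly(I:C) animals and 8.04 ± 0.05 in controls. Kcna5 had the lowest p of that group, with values of 3.60, 3.71 and 3.88 in poly(I:C) animals and 3.75, 3.88 and 3.96 in controls. The difference of -0.14 ± 0.048 did not pass (adjusted p = 0.109), and the mean signal of Kcna5 was low, at percentile 14.3 of annotated probe sets. Kcna3, Kcna4, Kcna7 and Kcna10 lay between -0.040 and 0.078.

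Of the 16 auxiliary and regulatory genes none was called. All 4 Kcnip genes, calcium-binding partners of Kcnd channels, had higher means after poly(I:C). Kcnip4 averaged 9.26 ± 0.06 in poly(I:C) animals and 9.12 ± 0.08 in controls, with 4 of 6 poly(I:C) animals above the highest control, and its difference of 0.15 ± 0.040 did not pass (adjusted p = 0.0580). Kcnip3, also known as the transcriptional repressor DREAM, averaged 10.09 ± 0.15 in poly(I:C) animals and 10.02 ± 0.11 in controls. Kcnip1 (0.0096) and Kcnip2 (0.076) did not pass. Of the beta subunits of Kcna channels, Kcnab2 differed by 0.00018 ± 0.028 (95% interval -0.060 to 0.060), Kcnab3 by 0.11 ± 0.052 (adjusted p = 0.249) and Kcnab1 by -0.010.

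The 5 Kcne genes, single-pass subunits best known from heart and epithelia, did not pass. Their differences lay between -0.11 and 0.024, with Kcne1l, also named Kcne5, at -0.088 ± 0.052. Kcnrg, a regulator that holds back assembly of voltage-gated channels, averaged 4.46 ± 0.16 in poly(I:C) animals and 4.61 ± 0.10 in controls and did not pass (adjusted p = 0.201). No poly(I:C) animal lay above the control mean of Kcnrg, whose mean signal was at percentile 28.8 of annotated probe sets.

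Of the 7 Kcnh genes, which encode the EAG, ERG and ELK channels, 6 had higher means after poly(I:C) and none was called. Kcnh4, an ELK channel, had values of 5.90, 6.04 and 6.26 in poly(I:C) animals and 5.78, 5.87 and 5.99 in controls, and its difference of 0.20 ± 0.056 did not pass (adjusted p = 0.0623). Poly(I:C) 1 and 2 gave its highest values, 6.26 and 6.21. Kcnh7, an ERG channel, averaged 9.06 ± 0.06 in poly(I:C) animals and 8.91 ± 0.09 in controls, a difference of 0.15 ± 0.043 (adjusted p = 0.0678). Kcnh5, an EAG channel, differed by 0.18 ± 0.061 (adjusted p = 0.116). Kcnh1, the founding EAG channel, averaged 9.12 ± 0.05 in poly(I:C) animals and 9.08 ± 0.06 in controls. The differences of Kcnh2, Kcnh3 and Kcnh8 lay between -0.041 and 0.031, and the other probe set of Kcnh8 differed by -0.0033.

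All 3 Kcnq genes had higher means and none passed. Kcnq5, a subunit of the muscarine-sensitive M current, averaged 9.08 ± 0.05 in poly(I:C) animals and 8.99 ± 0.05 in controls, a difference of 0.088 ± 0.033 (adjusted p = 0.157), with 4 of 6 poly(I:C) animals above the highest control. Kcnq3, its partner in that current, differed by 0.045 ± 0.039, and Kcnq1, best known from heart, by 0.0062 ± 0.046.

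**Figure D3:**
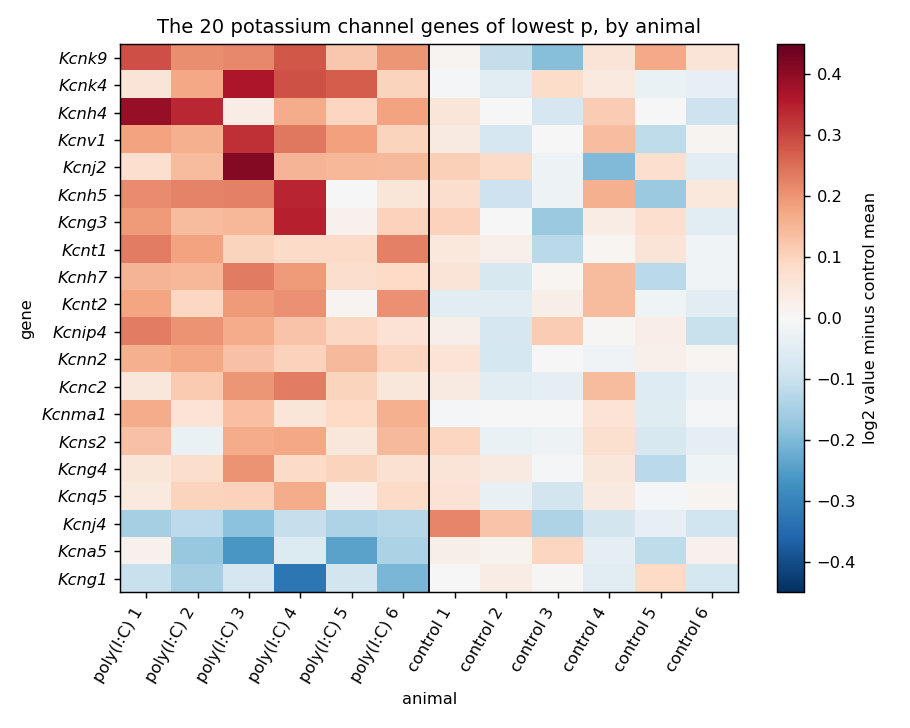
Log2 value minus the control mean, by animal, for the 20 potassium channel genes of lowest p, ordered by their difference. Of these genes 17 have a higher mean after poly(I:C), and Kcnj4, Kcna5 and Kcng1 a lower one.

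None of the 14 inward rectifier genes was called, 10 having higher and 4 lower means. None of the 4 strong rectifiers of the Kir2 group passed. Kcnj2 averaged 5.67 ± 0.12 in poly(I:C) animals and 5.49 ± 0.12 in controls, with 5 of 6 poly(I:C) animals above the highest control, and its difference of 0.18 ± 0.058 did not pass (adjusted p = 0.0978). Kcnj4 had values of 8.07, 8.12 and 8.15 in poly(I:C) animals and 8.12, 8.20 and 8.47 in controls, where controls 1 and 2, at 8.47 and 8.38, stood above the rest. Its difference of -0.14 ± 0.052 did not pass (adjusted p = 0.153). Kcnj12 (0.038) and Kcnj14 (0.025) did not pass, and Kcnj14 spread widely in poly(I:C) animals, from 3.86 to 4.92.

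The G protein-gated rectifiers that answer inhibitory receptors gave differences of 0.044 ± 0.030 for Kcnj3, 0.082 ± 0.039 for Kcnj6, 0.057 ± 0.042 for Kcnj9 and -0.024 ± 0.045 for Kcnj5, none of which passed. Kcnj3 averaged 9.02 ± 0.05 in poly(I:C) animals and 8.97 ± 0.02 in controls. Kcnj10, the astrocyte channel that takes up potassium released by neurons, averaged 8.49 ± 0.11 in poly(I:C) animals and 8.53 ± 0.07 in controls and did not pass (95% interval of the difference -0.14 to 0.062). Its partner Kcnj16 differed by 0.098 ± 0.053. Kcnj11, the pore of channels closed by ATP, differed by 0.029 ± 0.030. Kcnj13, an epithelial channel strong in choroid plexus, ran from 4.52 to 5.19 in poly(I:C) animals and from 4.18 to 5.04 in controls, while the 4 measured choroid plexus markers had list means of 4.49 to 4.65 in poly(I:C) animals and 4.51 to 4.66 in controls. The kidney channels Kcnj1 (-0.026) and Kcnj15 (0.016) did not pass.

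Genes that work with these channels were counted from 4 further lists. Of 22 channel partners, which anchor, traffic or co-assemble with the pores, none was called, 18 had higher and 4 lower means, and the median difference was 0.039. Annotated probe sets at or above the median signal had higher means in 65.7%, with a median difference of 0.026, and all annotated probe sets in 52.0%. Dlg1, a scaffold that clusters channels, differed by 0.089 ± 0.035 (adjusted p = 0.169) and Dpp10, a companion of Kcnd channels, by 0.076 ± 0.032 (adjusted p = 0.199). Of 12 G protein and RGS genes that act on Kir3 channels, Rgs7, which speeds the closing of those channels, rose. Its values were 8.91, 8.97 and 9.01 in poly(I:C) animals and 8.69, 8.80 and 8.88 in controls, without overlap. It averaged 8.96 ± 0.04 in poly(I:C) animals and 8.80 ± 0.07 in controls, a difference of 0.16 ± 0.035 (adjusted p = 0.0252). The call was lost after quantile normalization (adjusted p = 0.0534), without variance moderation (0.0630) and without poly(I:C) 1 or 4 or control 2 (up to 0.0600). None of the other genes of that list was called, beside 2.83% of all annotated probe sets called. Rgs6, its relative, differed by 0.080 ± 0.039 (adjusted p = 0.281).

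Among 3 measured HCN genes, related channels that pass sodium and potassium on hyperpolarization, none was called, with Hcn2 at -0.078 ± 0.062 and Hcn3 at 0.081 ± 0.048. Of 6 potassium transport genes none was called. Slc12a5, the neuronal chloride exporter driven by potassium, averaged 9.70 ± 0.04 in poly(I:C) animals and 9.66 ± 0.01 in controls. Slc12a2, the importer that opposes it, averaged 7.69 ± 0.03 in poly(I:C) animals and 7.73 ± 0.06 in controls.

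The number of members called moved with single animals. It was 0 without control 2, and 23 members then had an unadjusted p under 0.05. It was 1 without poly(I:C) 1, 3 or 4 (without poly(I:C) 3 it was Kcnh4, none of the 5), 2 without control 1 or 3, 3 without poly(I:C) 6 or control 6, and 8 without control 4. Without poly(I:C) 2 it was 4, and without poly(I:C) 5 or control 5 it was 5. Leaving out controls 5 and 6, which had the highest striatal scores, gave 2 calls, Kcnk9 and Kcnn2. Calls over all 23099 annotated probe sets moved as well. They were 653 with all animals, 230 without control 2, 236 without poly(I:C) 1, 701 without control 4 and 818 without poly(I:C) 2. Without controls 5 and 6 together they were 627.

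**Figure D4:**
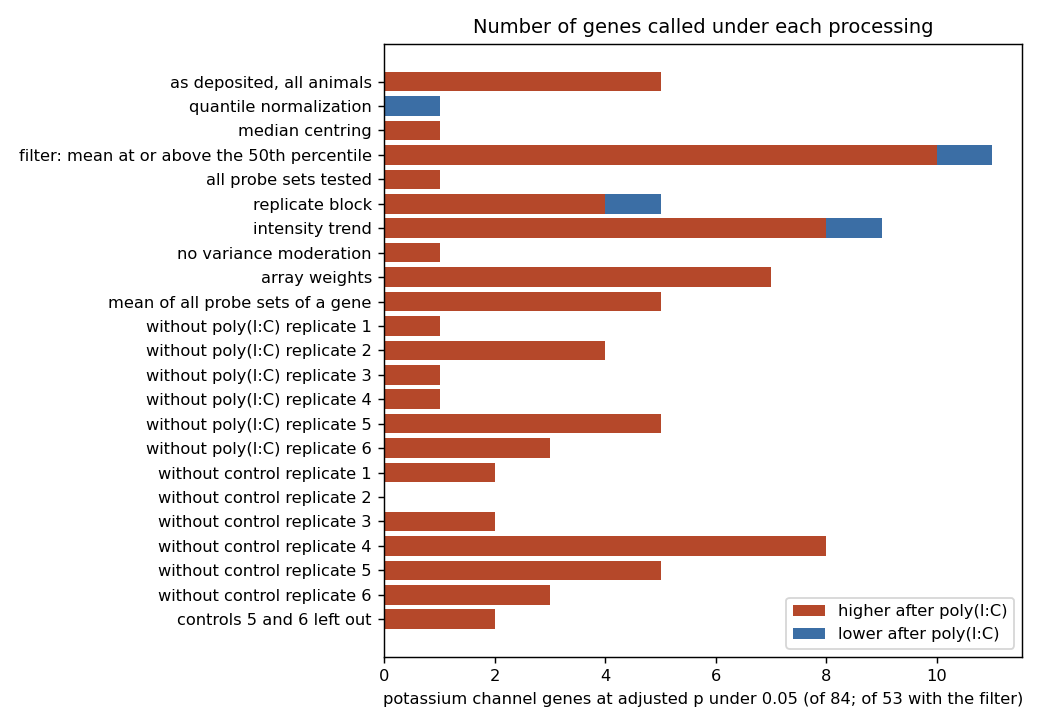
Number of potassium channel genes called at an adjusted p under 0.05 under each processing, split into higher and lower after poly(I:C). The count is 5 as deposited and runs from 0 without control 2 to 11 of 53 where only probe sets at or above the 50th percentile of signal are tested.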

How the data were processed

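Total RNA of micro-dissected medial prefrontal cortex was hybridised to Affymetrix Mouse Gene 1.1 ST strips, per the labels' protocols, which mention a 3' IVT kit as well as a whole-transcript kit. As deposited, each value is a log2 expression level of 1 probe set, judged from its scale. RMA and Partek 6.6 are named, without role or order, in the submitters' processing notes, and the genome build was not given in the sources used here. Processing of the RMA kind makes array distributions alike and compresses differences near the floor. The number of arrays limits the precision.

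Of 35556 probe sets, 21218 carried 1 gene symbol, 1881 several and 12457 none in the platform annotation, which can be old. All 84 members matched the RefSeq gene table by symbol. The 23099 annotated probe sets entered one limma 3.58.1 fit (lmFit, eBayes; R 4.3.3) of all 12 samples with group as the only term, and two-sided p-values were adjusted by Benjamini-Hochberg over the 23099. Every adjusted p comes from that fit or its alternatives. The fit was tested on simulated data. Plots were drawn with matplotlib 3.10.9.

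Named genes were all called members, the 20 of lowest p, the brightest and the lowest-p member of each subfamily, and of each partner list the called genes and the 2 of lowest p. Other members were named after their values were seen, to account for each. Alternatives covered scaling, filtering, moderation, weights, probe set choice, a replicate block and left-out animals. The members and lists were chosen with earlier results of these data known. Promoter sequences are from RefSeq (GRCm38.p6).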

Additional observations from a re-analysis of the deposited data

Results flagged for a closer look

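Of 90 groups of 6 values checked among the named genes, 7 held a value set apart from its group by more than Dixon's 95% critical value (0.625 of the range for 6 samples), and chance flags about 1 in 20. For Kcnj2, poly(I:C) 3 stood highest at 5.90, with the next at 5.64. For Kcng4 the same animal stood highest at 4.80, with the next at 4.70. Kcnip3 had a high value in each group, 10.39 in poly(I:C) 5 with the next at 10.08, and 10.24 in control 3 with the next at 10.01. For Kcnab3, poly(I:C) 4 stood lowest at 7.07, with the next at 7.19. Among the partner genes, poly(I:C) 6 stood highest for Hcn3 at 5.92, with the next at 5.71, and for Slc12a2 at 7.76, with the next at 7.69. None of these 6 genes was called in the comparison of all 12 animals.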

How the results depend on the processing

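Of the 5 potassium channel calls, 1 was left after median centring, with all probe sets of the table tested or without variance moderation, and 0 after quantile normalization, which called 1 lower gene, Kcng1. Calls over all probe sets tested were 530, 414, 122 and 524 in these settings, beside 653 in the main fit. With limma the counts were 11 (10 higher, 1 lower) among probe sets at or above the 50th percentile, 9 (8 higher, 1 lower) with an intensity trend and 2 without controls 5 and 6. That filter kept 53 members and gave 868 calls over all 11550 probe sets kept, and the trend gave 810 over all 23099. Array weights gave 7 members called, all higher and among them the 5 of the main fit, with 786 calls over all 23099. Averaging all probe sets of a gene called the same 5 members, with 535 calls over all 18820 genes. Leaving out 1 animal gave 0 to 8 members called, all higher, with 230 to 818 calls over all annotated probe sets. The partner genes gave 1 call, and 0 after quantile normalization, without moderation or with the replicate block, and 0 to 1 when 1 animal was left out. Whether the replicate numbers pair the animals is not said in the labels. Deviations of same-numbered animals correlated at -0.092 to 0.110, but differently numbered animals were not compared, so this cannot decide it. With the replicate block 5 members were called, 4 higher and 1 lower, 2 of them (Kcnk4 and Kcnv1) shared with the calls without it. The block gave 536 calls over all 23099 annotated probe sets. Under the block Kcnn2 (adjusted p = 0.0614), Kcnt1 (0.0561), Kcnk9 (0.0511) and Rgs7 (0.0515) lost their calls, and Kcng1 passed as lower (0.0434). Of 449 subfamily medians under alternatives, 3 moved by more than the spread between animals: Kcnab (0.035) and Kcne (-0.093) without controls 5 and 6, and Kcnk, at -0.0073 to 0.021 when 1 animal was left out. Part of the 449 could not move. Testing all probe sets, the replicate block, an intensity trend and no variance moderation leave every difference unchanged. Sign changes occurred for uncalled genes near 0. Kcnab2 was -0.018 after quantile normalization, -0.010 after median centring, -0.0032 with array weights, -0.0048 without controls 5 and 6 and -0.013 to 0.0075 when 1 animal was left out. Kcnd2 was -0.010 after quantile normalization and -0.012 to 0.033 when 1 animal was left out. Kcnf1 ran from -0.037 to 0.0025 and Kcnu1 from -0.037 to 0.016 in such fits, and Slc12a2 was 0.0021 without controls 5 and 6. Each value rests on 1 array an animal and 6 animals a group, and whether more arrays would change the calls was not tested.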
